A study of Arabidopsis thaliana with 30 samples.

Results

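The genes described here are those of the chloroplast genome, the small circular genome that plastids keep from their bacterial ancestor. They were taken as all rows of the expression table whose locus identifier starts with ATCG and that reached 1 FPKM (sequenced fragments per 1000 bases of transcript, corrected for library size) in at least 3 of 30 libraries. Of 134 such rows, 43 passed and 91 did not, among 21531 of 38088 rows passing in the whole table. The members were 20 rows for ribosomal proteins, 6 for photosystem subunits, 4 for ATP synthase, 4 for ribosomal RNA, 3 for the NADH dehydrogenase-like (NDH) complex, 2 for the plastid RNA polymerase, 1 each for the large subunit of Rubisco and a photosystem assembly factor, and 2 others (clpP and cemA). A member can have passed only through the condition in which it is high, so counts over the members describe them and support nothing further.

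The study measured transcripts by mRNA sequencing in whole Arabidopsis seedlings, 7 days old, of 5 genotypes: smxl4 smxl5, smxl6 smxl7 smxl8, ski2 dcl4, ski2 dcl4 dcl2 and the wild type Col-0. Each genotype was sampled after 85 min at 44 °C (heat) and without heat (control), with 3 libraries a group and 10 groups. Plants grew on agar plates at 22 °C in long days, and heat was given by putting the sealed plates into a water bath. SMXL4 and SMXL5 act in phloem formation, SMXL6, SMXL7 and SMXL8 repress strigolactone responses, SKI2 is a helicase that feeds RNA to the cytoplasmic exosome, and the Dicer-like enzymes DCL4 and DCL2 make small RNAs from longer ones. The labels give neither the alleles nor the number of plants per library, and separate cultures behind the libraries of a group are not stated. The p-values thus measure only how far these samples spread, and that spread may be technical.

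The mutated genes were read first. SKI2, at control, was lower than in Col-0 in ski2 dcl4 (log2 change −0.77) and in the triple mutant ski2 dcl4 dcl2 (−0.88), DCL2 was lower in the triple mutant (−0.64), and DCL4 did not pass the test in either. The heat libraries gave a lower DCL4 for ski2 dcl4 (−0.34, limma adjusted p = 0.00353), with no call in the triple mutant (−0.13, 0.437). SMXL6 (−0.64) and SMXL8 (−0.48) were lower in smxl6 smxl7 smxl8 at control. SMXL7 did not pass there at control (0.02, limma adjusted p = 0.928) and was lower after heat (−1.12). SMXL5 averaged 15.01 ± 0.42 FPKM in control libraries labelled smxl4 smxl5 and 4.57 ± 0.46 FPKM in Col-0 controls (SD, n = 3 each), and SMXL4 was higher there too (0.53). In the heat libraries with that label, SMXL4 was below its Col-0 level (−0.64, limma adjusted p = 0.000192), and SMXL5 did not pass (−0.02, 0.872). The control values show no loss of either transcript, and without the alleles the label could not be checked from them. The groups with that label are called smxl4 smxl5-labelled libraries. The summed FPKM of a library lay between 931940 and 1099793 in heat libraries and between 735524 and 904077 in control libraries, without overlap. Depth is not recorded in the values. Relative to the median library, estimated depths lay between 0.827 and 0.985 in heat libraries and between 1.015 and 1.24 in control libraries. Estimated depth thus differed with treatment, without overlap, and its part in rows listed at 0 was not tested.

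Plastid genes are read by 2 kinds of polymerase. A bacterial-type enzyme, whose core subunits are encoded by the plastid rpo genes and whose sigma factors come from the nucleus, serves most photosynthesis genes, and a phage-type enzyme encoded in the nucleus serves rpoB, clpP, accD and other housekeeping genes. Transcripts are made as long runs of several genes and are then cut, spliced and edited. In plastids, as in bacteria, added adenine-rich tails mark an RNA for decay rather than for translation, so a protocol that selects long adenine tails recovers only part of the plastid RNA. The labels name an mRNA-seq protocol and do not say how mRNA was selected.

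Most plastid rows were listed at or near 0, those for photosynthesis genes among them. All 37 transfer RNA rows and 4 of the 8 ribosomal RNA rows (the 4.5S and 5S copies) were listed at 0 in all 30 libraries, as were 9 of 20 photosystem rows and 3 of 6 cytochrome b6f rows. None of the cytochrome b6f rows was a member. In all, 56 rows were listed at 0 throughout, and 35 had values above 0 but too few at 1 FPKM. A row listed at 0 can also be a failed estimate.

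The reaction centre genes show how low the levels were. psaA, which encodes a core protein of photosystem I, had a lowest, median and highest value of 0.0731, 0.191 and 0.879 FPKM over the 15 heat libraries, against 0.0410, 0.0764 and 0.151 FPKM over the 15 control libraries. Its partner psaB reached at most 0.352 FPKM in heat and 0.194 FPKM in control libraries. Neither passed the filter, so no test was made, and the ranges of the 2 conditions overlapped for both. psbD and psbC, for the D2 and CP43 proteins of photosystem II, were likewise outside, with medians of 0.381 and 0.431 FPKM in heat libraries against 0.104 and 0.107 FPKM in control libraries.

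The members nearest the threshold were ycf3, a photosystem I assembly factor, psbB, for the CP47 protein, and psaC, for the iron-sulphur subunit of photosystem I, each with exactly 3 libraries at 1 FPKM or more. On the other side stood rpoC1, psbC, psbZ, rps15 and orf77.2 with 2 libraries each, whose highest values were 1.05, 1.77, 32.0, 2.59 and 3.07 FPKM. psbZ is a short gene of photosystem II whose 2 values above 0 were both in heat libraries. Between 22 and 37 members reached 1 FPKM in a heat library and between 21 and 31 in a control library, and 23 members were above 0 in all 30 libraries.

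FPKM divides by length, so in short genes a single read is worth many FPKM. For 38 members, the FPKM of 1 read was estimated from rarely detected nuclear genes of similar length. For the other 5 (rpl32, psbK, rpl33, rps12B and rps12C), the member's own smallest value above 0 was taken as 1 read. Each member's values were then turned into reads. Of the members, 20 had a median under 5 reads and 12 had 10 or more reads in every library. rpl32, which encodes a protein of the large ribosomal subunit, stood first by FPKM with a mean of 741 and a highest value of 2312, yet its values came to 0, 2.12 and 6.02 reads at the lowest, median and highest. Its coding sequence (plastid genome of the RefSeq TAIR10.1 assembly, 113449 to 113607, plus strand) is shown because it is the shortest frame among the abundant rows. The capitals mark the first run of A of its longest length, 7 bases, and a later run left in lower case is as long.

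rpl32: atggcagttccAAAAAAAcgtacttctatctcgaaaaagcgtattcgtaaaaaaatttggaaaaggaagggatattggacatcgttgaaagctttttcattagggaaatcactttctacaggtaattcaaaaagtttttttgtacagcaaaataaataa

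The frame has 159 bases. How the authors' software treats so short a row is not stated, and the reads behind a member, not its FPKM, set its counting error. The 2 rows of rrn16S, the RNA of the small ribosomal subunit, reached the highest read estimate (rrn16S.1 had 22.7, 108 and 2020 reads at the lowest, median and highest), while psbA, for the D1 protein of photosystem II, had 3.95, 11.8 and 99.7 reads, and rbcL, for the Rubisco large subunit, had 5.86, 14.2 and 139. rpl2.1 (70.1, 96.3 and 120 reads) and clpP (54.5, 69.5 and 106 reads), which encodes the catalytic subunit of the plastid Clp protease, had higher lowest estimates than psbA and rbcL. The read estimates assume that the authors counted whole reads: 77.19% of 2705 values over 1.5 steps lay within 0.1 of a whole step.

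**Figure D1:**
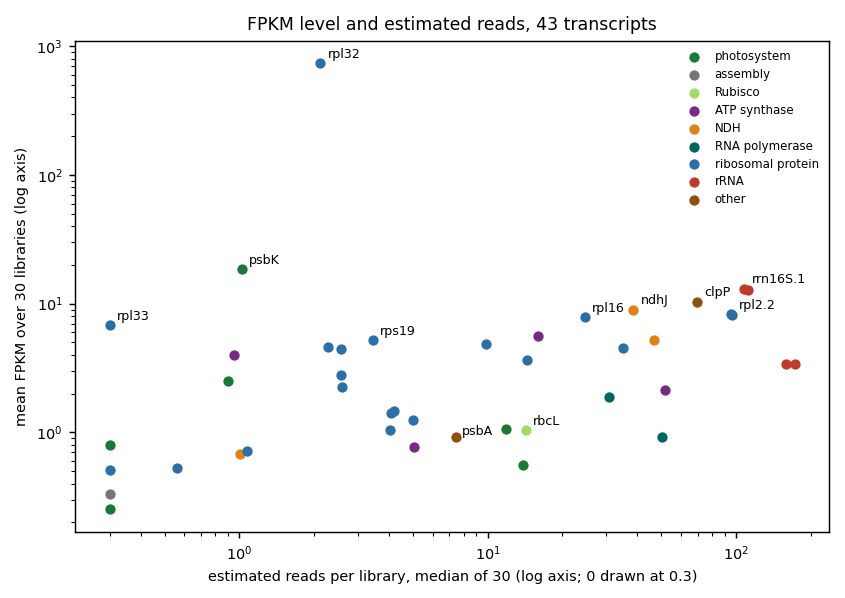
Each point is a chloroplast member, with its mean FPKM over the 30 libraries on the vertical log axis and its median estimated reads per library on the horizontal log axis, where a median of 0 is drawn at 0.3. rpl32 and psbK stand high in FPKM with medians of 2.12 and 1.02 reads, their smallest value being taken as 1 read. The rows of rpl2.1, clpP and 16S rest on far more reads.

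By class, the spread between the 3 libraries of a group was large. The coefficient of variation of a ribosomal protein row had a median of 49.7% in heat groups and 36.8% in control groups, and 173%, the value when only 1 of the 3 libraries is above 0, was reached in both conditions. Photosystem rows had medians of 48.1% and 66.5% in heat and control groups, ATP synthase rows 14.7% and 38.3%, NDH rows 28.9% and 28.0%, RNA polymerase rows 15.7% and 14.7%, and rRNA rows 39.8% and 21.5%. The summed FPKM of the 4 rRNA rows ran from 18.6 to 196 in heat libraries (median 52.1) and from 6.34 to 13.04 in control libraries (median 7.72), without overlap. The sums of the other classes overlapped between the conditions: ATP synthase ran from 6.20 to 28.8 FPKM in heat libraries against 6.51 to 18.9 FPKM in control libraries, NDH from 10.4 to 26.2 FPKM with heat against 9.45 to 17.7 FPKM at control, and the ribosomal proteins without rpl32 from 37.7 to 116 FPKM with heat against 42.5 to 99.3 FPKM at control.

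Few members were called in the same direction after heat in every genotype. In the smxl4 smxl5-labelled libraries, 9 of 43 members were called higher and 4 lower after heat, where 29.9% and 24% of all genes tested were. In smxl6 smxl7 smxl8, 2 were higher and 7 lower (28.7% and 24.1% of all genes). In ski2 dcl4, 10 were higher and 5 lower (32% and 23.6%), in ski2 dcl4 dcl2, 5 and 7 (25.8% and 24.3%), and in Col-0, 13 and 5 (29.9% and 27.3%). The share of members called was thus near or below that of all genes in each direction and genotype. The median log2 change of the members was 0.19, −0.16, 0.28, 0.13 and 0.33 in these 5 genotypes in the same order, against 0.04, 0.04, 0.06, 0.01 and 0.01 over all genes tested.

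When libraries were rescaled to equal sums of nuclear genes, a choice made after seeing the data, the median of all genes moved with heat by −0.25 (libraries labelled smxl4 smxl5), −0.15 (smxl6 smxl7 smxl8), −0.22 (ski2 dcl4), −0.18 (ski2 dcl4 dcl2) and −0.25 (Col-0), and the members called higher and lower became 7 and 5, 2 and 11, 5 and 7, 4 and 7, and 6 and 5.

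**Figure D2:**
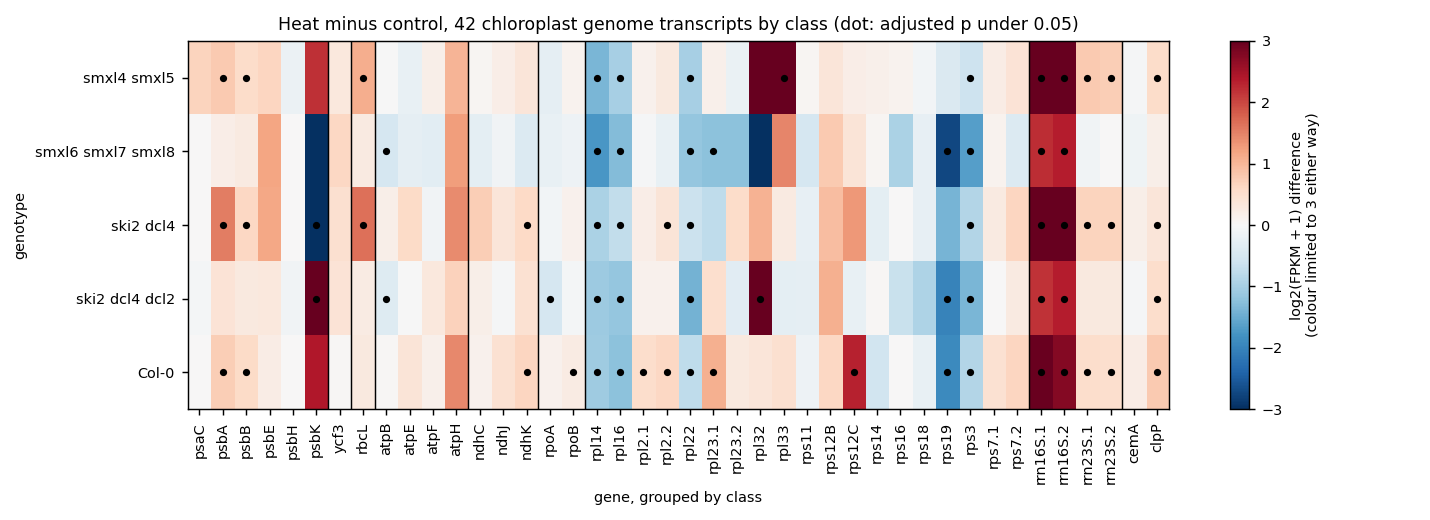
Columns are 42 of the 43 members grouped by class and rows the 5 genotypes, with Col-0 at the bottom. Colour gives the heat minus control change in log2(FPKM + 1), limited to ±3 in the colour scale, and a dot marks an adjusted p under 0.05. The 2 columns of 16S rRNA are red with a dot in all 5 rows, and rpl14, rpl16, rps3 and rpl22 are blue with a dot in all 5.

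The 16S ribosomal RNA, the RNA of the small subunit of the plastid ribosome, was higher after heat in all 5 genotypes, and its 2 rows were the only members called higher in all (4.65% of members, against 17.8% of all genes tested). It has 2 copies, rrn16S.1 and rrn16S.2, in the inverted repeat, and the RefSeq copies are identical over 1491 bases, so reads cannot be assigned to one of them and the rows are uncertain singly. Summed over both rows, the heat libraries labelled smxl4 smxl5 held 183, 15.9 and 48.5 FPKM against 3.64, 2.46 and 2.54 in their controls. The heat libraries of smxl6 smxl7 smxl8 held 49.3, 19.9 and 13.6 FPKM against 2.49, 4.58 and 3.16 in controls, and those of ski2 dcl4 60.2, 58.1 and 116 FPKM against 1.49, 1.97 and 3.67. In ski2 dcl4 dcl2 the values were 13.6, 24.8 and 21.3 FPKM after heat against 1.91, 2.03 and 3.62 in controls, and in Col-0 46.4, 18.6 and 43.8 FPKM against 2.93, 3.24 and 2.67.

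Every heat library was thus above every control library, a property of both 16S rows and of no other member (2 of 43, 4.65%, against 6.44% of all genes tested). For no member did every heat library lie below every control library, against 7.2% of all genes. The ratio of the heat to the control mean was 28.6 in the smxl4 smxl5-labelled libraries, 8.08 in smxl6 smxl7 smxl8, 32.9 in ski2 dcl4, 7.9 in ski2 dcl4 dcl2 and 12.3 in Col-0. With the copies summed, the log2 change was 3.80 ± 0.56 (adjusted p = 4.72e-06), 2.52 ± 0.56 (0.000612), 4.53 ± 0.56 (4.48e-07), 2.56 ± 0.56 (0.00057) and 3.14 ± 0.56 (4.68e-05) in the same order (SE). Replicates varied widely: in the heat libraries labelled smxl4 smxl5 the highest value was 183 and the lowest 15.9 FPKM, and without replicate 1 the change of rrn16S.1 there was 2.56 against 3.44 with it. No genotype's 16S change differed from that of Col-0 by the test of the difference itself, the largest being 1.39 ± 0.79 in ski2 dcl4 (adjusted p = 0.508).

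The 23S rRNA of the large subunit has 2 copies that are identical over 2810 bases, and it was called in 3 of the 5 genotypes. rrn23S.1 had 6.53, 2.86 and 4.46 FPKM in heat libraries labelled smxl4 smxl5 against 2.03, 2.01 and 2.48 in their controls, and 4.21, 4.00 and 4.06 FPKM in Col-0 heat libraries against 2.80, 2.42 and 2.34 in Col-0 controls. With the copies summed the change was 0.86 ± 0.22 in the smxl4 smxl5-labelled libraries (adjusted p = 0.0021), 0.74 ± 0.22 in ski2 dcl4 (0.00653) and 0.59 ± 0.22 in Col-0 (0.0258), with heat above control in each. In smxl6 smxl7 smxl8 (−0.05, adjusted p = 0.871) and ski2 dcl4 dcl2 (0.33, 0.23) it did not pass. Taken singly, both 23S rows lost their calls in Col-0 and ski2 dcl4 under equal nuclear sums, and so did rrn23S.2 in the smxl4 smxl5-labelled libraries. Both rows lost them in ski2 dcl4 without heat replicate 3 (adjusted p = 0.0652 and 0.129), and rrn23S.2 in the smxl4 smxl5-labelled libraries without heat replicate 1 (0.0658). In Col-0, rrn23S.1 lost its call without heat replicate 1 or control replicate 2 or 3 (adjusted p between 0.0571 and 0.0672), and rrn23S.2 without any 1 of the 6 libraries (0.0549 to 0.128).

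**Figure D3:**
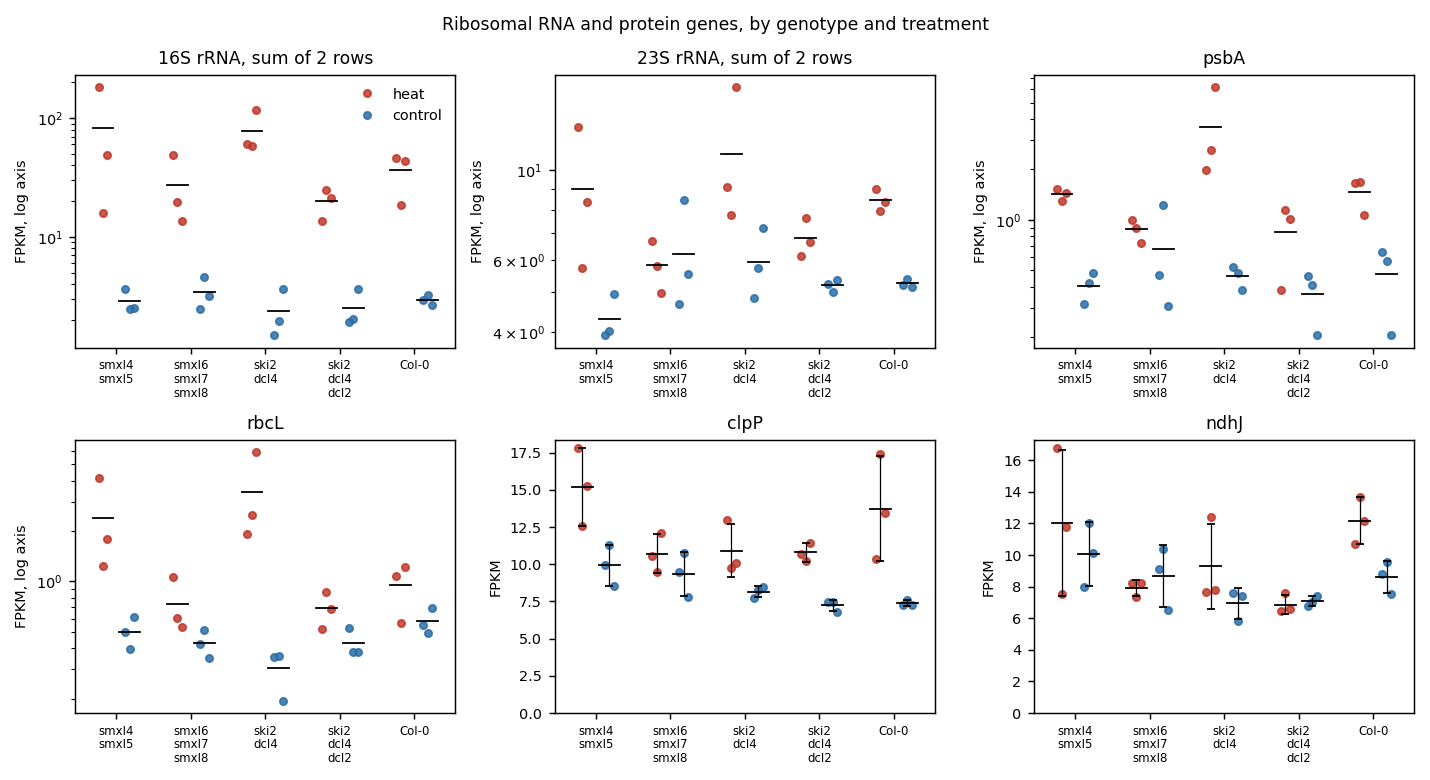
Each point is a library and each horizontal line a group mean, with heat left of control within a genotype and Col-0 last. FPKM is on log axes for 16S, 23S, psbA and rbcL and on linear axes, with SD whiskers, for clpP and ndhJ. In the summed 16S rows all 15 heat points lie above all 15 control points, and in each other panel the groups overlap in at least 1 genotype.

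A run of adjacent ribosomal protein genes was lower after heat. rpl14, rpl16, rps3 and rpl22 were called lower after heat in every genotype (4 of 43 members, 9.3%, against 14.8% of all genes tested), and rps19, the next gene, in 3 of the 5. rpl14, rpl16 and rpl22 encode proteins of the large subunit, rps3 and rps19 proteins of the small subunit. In the RefSeq annotation they follow each other on the minus strand: rps19 (84005 to 84283), rpl22 (83467 to 83949), rps3 (82826 to 83482), rpl16 (81189 to 82652) and rpl14 (80696 to 81064), a gene order kept from bacteria. rpl22 and rps3 overlap by 16 bases, printed here in capitals within the end of rpl22 and the start of rps3 (83445 to 83504), because reads there cannot be assigned to one of them.

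rpl22-rps3: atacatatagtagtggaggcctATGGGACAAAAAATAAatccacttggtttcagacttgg

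For each of the 5 genes, the longest stretch of A, the first where lengths tie, is shown in capitals. These are shown because A content was higher in members than in the other protein-coding genes. Protein-coding members had a median of 33.0% A (34 genes) and the other protein-coding plastid genes 28.8% (44 genes). The 20 ribosomal protein genes other than rps12 had a median of 35.8% A and the 20 photosystem genes 25.9%, and the 5 genes of the run lay between 34.3% and 39.7%. The gene rps12 was left out of all these sets. Members were also shorter, with a median of 412 bp against 627 bp, while the median longest run of A was 5 bases in members and 6 in the others. These are descriptions of the annotation, with no test.

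rpl14: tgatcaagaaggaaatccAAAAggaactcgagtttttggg
rpl16: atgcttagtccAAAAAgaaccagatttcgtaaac
rps3: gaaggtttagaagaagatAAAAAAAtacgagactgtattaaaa
rpl22: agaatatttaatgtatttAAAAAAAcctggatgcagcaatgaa
rps19: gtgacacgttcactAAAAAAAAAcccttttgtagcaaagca

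rpl16 was the most abundant of the run. Its heat libraries labelled smxl4 smxl5 held 4.46, 9.55 and 3.61 FPKM against 10.6, 11.5 and 13.4 in controls, those of smxl6 smxl7 smxl8 5.01, 3.96 and 3.48 against 11.4, 10.1 and 13.9, and those of ski2 dcl4 2.91, 5.38 and 3.17 against 7.46, 7.19 and 6.06. The ski2 dcl4 dcl2 heat libraries held 4.29, 2.41 and 4.69 FPKM against 8.31, 8.41 and 12.3 in controls, and the Col-0 heat libraries 4.67, 8.47 and 4.88 FPKM against 14.7, 14.3 and 15.6. Every group of heat libraries lay below its own controls. On the log2 scale it fell by 1.00 ± 0.26 (adjusted p = 0.00212), 1.31 ± 0.26 (0.00016), 0.75 ± 0.26 (0.0166), 1.17 ± 0.26 (0.000583) and 1.22 ± 0.26 (0.000277) in the order given.

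rps3 fell in the same genotypes by 0.62 (libraries labelled smxl4 smxl5), 1.66 (smxl6 smxl7 smxl8), 0.89 (ski2 dcl4), 1.38 (ski2 dcl4 dcl2) and 0.88 (Col-0) on the log2 scale, each with an SE of 0.21. The smxl6 smxl7 smxl8 heat libraries had 1.93, 1.97 and 1.13 FPKM of rps3 against 7.90, 7.86 and 6.34 in controls, which did not overlap. rpl14 fell by 1.37, 1.75, 0.95, 1.08 and 1.06 in that order (SE 0.34), and rpl22 by 1.00, 1.15, 0.63, 1.42 and 0.77 (SE 0.27). In Col-0, rpl22 had 2.35, 4.86 and 2.47 FPKM after heat and 6.55, 4.55 and 6.96 in controls, so here the groups overlapped, and the call was lost without heat replicate 1 or 3 or control replicate 1 or 3 (adjusted p between 0.0545 and 0.0803). The rpl14 call was lost in Col-0 without heat replicate 3 (0.0997) and in ski2 dcl4 dcl2 without heat replicate 2 (0.0698), and the rps3 call in the smxl4 smxl5-labelled libraries without heat replicate 3 (0.0984) or control replicate 1 (0.0536).

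rps19 rested on few reads, with 0, 3.45 and 12.3 at the lowest, median and highest. Its heat libraries of smxl6 smxl7 smxl8 were listed at 4.41, 0 and 0 FPKM against 6.52, 14.4 and 12.4 in controls, those of ski2 dcl4 dcl2 at 1.13, 1.32 and 1.46 FPKM against 9.87, 4.71 and 11.5, and those of Col-0 at 0, 4.49 and 3.08 FPKM against 9.70, 11.2 and 7.94. These were the 3 genotypes in which it was called lower. In the smxl4 smxl5-labelled libraries (3.62, 4.61 and 3.83 FPKM against 4.79, 8.33 and 4.67) and in ski2 dcl4 (3.25, 0 and 1.46 FPKM against 4.22, 10.4 and 2.25) it did not pass. The Col-0 call was lost without heat replicate 1 (adjusted p = 0.118).

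The summed FPKM of the 5 genes averaged 20.6 ± 5.46 after heat and 41.9 ± 5.70 in controls in the smxl4 smxl5-labelled libraries, 10.8 ± 2.81 after heat and 42.7 ± 1.82 at control in smxl6 smxl7 smxl8, 10.6 ± 1.81 and 24.1 ± 6.61 FPKM in ski2 dcl4, 10.6 ± 2.45 after heat and 35.7 ± 6.37 at control in ski2 dcl4 dcl2, and 18.7 ± 7.47 and 45.4 ± 1.36 in Col-0 (SD, n = 3 each). The 3 heat libraries lay below the 3 control libraries in each genotype, although over all genotypes the heat sums (7.62 to 27.2 FPKM) overlapped the control sums (17.5 to 46.7 FPKM). No gene of the run had a heat change that differed from that in Col-0 by the test of the difference. With only the groups compared fitted, the heat calls of rpl14 (adjusted p = 0.0537), rpl22 (0.0583) and rps19 (0.0561) in Col-0 and of rpl14 in ski2 dcl4 (0.0523) were lost. In ski2 dcl4, rpl14 lost its call without heat replicate 2 (adjusted p = 0.133) or control replicate 1 (0.0982), rpl16 without heat replicate 1 or 3 or control replicate 1 (0.052 to 0.0789), and rpl22 without heat replicate 1 or 2 or control replicate 1 or 2 (0.0641 to 0.183).

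**Figure D4:**
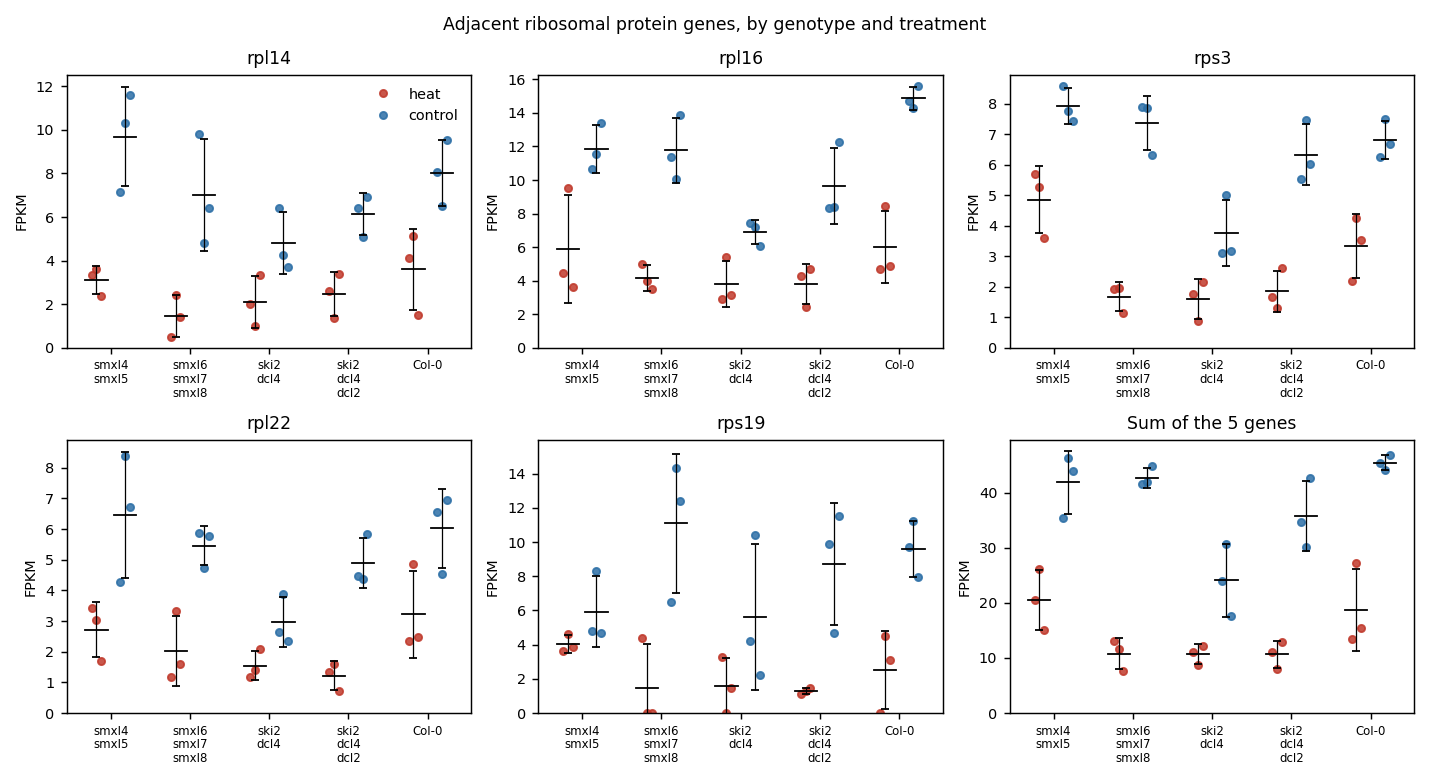
Points are libraries of the 5 genes rpl14, rpl16, rps3, rpl22 and rps19 and of their sum, in FPKM, with heat left of control in each genotype and Col-0 last. Bars and whiskers give the mean and SD of 3 libraries, and the summed heat libraries lie below the summed controls in every genotype.

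The genes beyond rps19 were not lower after heat in all genotypes. They are rpl2 and rpl23, both for large-subunit proteins and both present in 2 identical copies (825 and 282 bases). With the rpl2 copies summed, heat libraries labelled smxl4 smxl5 held 19.4, 15.3 and 15.5 FPKM against 12.1, 14.1 and 16.1 in controls, those of smxl6 smxl7 smxl8 16.7, 16.8 and 14.1 against 16.0, 17.8 and 18.5, and those of ski2 dcl4 14.2, 15.9 and 15.5 against 10.4, 13.6 and 12.2. The ski2 dcl4 dcl2 heat libraries held 18.7, 17.1 and 16.9 FPKM against 16.5, 13.8 and 17.6, and the Col-0 heat libraries 22.97, 23.95 and 25.22 FPKM against 16.7, 15.5 and 14.2.

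The Col-0 heat libraries were thus above all other groups for rpl2. The change with heat was 0.61 ± 0.11 in Col-0 (adjusted p = 4.93e-05) and 0.31 ± 0.11 in ski2 dcl4 (0.0173), and it did not pass in the other genotypes. After heat, summed rpl2 was lower than in Col-0 in the smxl4 smxl5-labelled libraries (−0.50, adjusted p = 0.00096), in smxl6 smxl7 smxl8 (−0.58, 0.00067) and in both ski2 genotypes (−0.63, 6.62e-05, for ski2 dcl4 and −0.43, 0.0176, for ski2 dcl4 dcl2). These 4 comparisons share the same 3 Col-0 libraries. As single rows, rpl2.1 and rpl2.2 lost their heat calls under equal nuclear sums in Col-0 (adjusted p = 0.207 and 0.0523), as did rpl2.2 in ski2 dcl4 (0.564). The call of rpl2.2 in ski2 dcl4 dcl2 against Col-0 after heat was lost without Col-0 heat replicate 2 or 3 or any of the 3 ski2 dcl4 dcl2 heat libraries (0.0693 to 0.123). The heat change of rpl2 in smxl6 smxl7 smxl8 stood apart from the Col-0 one by −0.74 ± 0.15 (adjusted p = 0.00886). Among single rows this difference passed for rpl2.2 (−0.86), rpl23.1 (−2.31) and ndhK (−1.06), where 3.89% of all genes passed in that direction, and for 0 members in the other, where 1.41% did. With only the groups compared fitted, all 3 were lost (adjusted p = 0.0677 for rpl2.2, 0.117 for rpl23.1 and 0.118 for ndhK). In the smxl4 smxl5-labelled libraries, ski2 dcl4 and ski2 dcl4 dcl2, no member's heat change differed from that in Col-0 by limma's test (2, 4 and 5 members at an unadjusted p under 0.05), where 2.08%, 0.372% and 0.0464% of all genes did.

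rpl23 rested on fewer reads (0, 2.57 and 6.99 for rpl23.1). rpl23.1 was listed at 0, 2.66 and 0 FPKM in smxl6 smxl7 smxl8 heat libraries against 3.10, 2.48 and 2.35 in their controls, and had 8.17, 7.12 and 5.84 FPKM in Col-0 heat libraries against 2.30, 2.13 and 4.31 in Col-0 controls. As a single row it was called lower in smxl6 smxl7 smxl8, where the groups overlapped, and higher in Col-0. With the copies summed, the difference between these heat changes did not pass (−2.46 ± 0.78, adjusted p = 0.0657), nor did the change in Col-0 (0.86, 0.192). Summed rpl23 was still called lower with heat in smxl6 smxl7 smxl8 (−1.60, 0.0179), with overlapping groups. After heat it was lower than in Col-0 in smxl6 smxl7 smxl8 (−2.11, 0.00837) and ski2 dcl4 (−2.24, 0.00235), without overlap. It did not pass there in the smxl4 smxl5-labelled libraries (−0.46, 0.556) or ski2 dcl4 dcl2 (−1.42, 0.138). rps7, a small-subunit protein gene with 2 identical copies, did not pass as a single row in any genotype, and summed it rose in Col-0 (0.67, adjusted p = 0.0415) with overlapping groups.

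The photosystem and Rubisco members were higher after heat in some genotypes, from very low levels. psbA had 1.52, 1.29 and 1.45 FPKM in heat libraries labelled smxl4 smxl5 against 0.314, 0.422 and 0.482 in controls, 1.99, 2.60 and 6.21 in ski2 dcl4 heat libraries against 0.526, 0.481 and 0.384, and 1.66, 1.68 and 1.06 in Col-0 heat libraries against 0.645, 0.570 and 0.205. The groups did not overlap in these 3 genotypes, and the log2 change was 0.78 ± 0.23 (adjusted p = 0.0069), 1.54 ± 0.23 (7.03e-06) and 0.75 ± 0.23 (0.00908). In smxl6 smxl7 smxl8 (1.00, 0.898 and 0.733 FPKM against 0.467, 1.23 and 0.308) and in ski2 dcl4 dcl2 (0.383, 1.14 and 1.01 FPKM against 0.465, 0.410 and 0.205) they overlapped and psbA was not called. The Col-0 call was lost when control replicate 3 was left out (adjusted p = 0.0538). psbA reached 1 FPKM in 12 heat libraries and 1 control library, so without the heat libraries it would not have passed the filter.

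rbcL had 4.15, 1.24 and 1.78 FPKM in heat libraries labelled smxl4 smxl5 against 0.496, 0.393 and 0.617 in controls, and 1.91, 2.49 and 5.90 FPKM in ski2 dcl4 heat libraries against 0.356, 0.359 and 0.195 in controls. These were the genotypes in which it was called (1.08 ± 0.25, adjusted p = 0.000787, and 1.66 ± 0.25, 6.09e-06). rbcL reached 1 FPKM in 9 heat libraries and 0 control libraries, so it passed the filter only through heat. Its heat calls thus describe it and support nothing further. In Col-0 it had 1.08, 0.568 and 1.21 FPKM after heat and 0.546, 0.492 and 0.695 in controls, which overlapped, and the difference of the ski2 dcl4 change from that in Col-0 did not pass (1.37, adjusted p = 0.0896). The ski2 dcl4 heat replicate 3 and the heat replicate 1 labelled smxl4 smxl5, which were highest for rbcL in their groups, were also highest for the 16S rows. psbB rose in the smxl4 smxl5-labelled libraries (0.55 ± 0.16), ski2 dcl4 (0.62 ± 0.16) and Col-0 (0.58 ± 0.16). It reached 1 FPKM in 3 heat libraries and 0 control libraries, so the same limit holds for its calls. In Col-0 it had 0.867, 0.969 and 1.21 FPKM against 0.170, 0.458 and 0.421, and in the smxl4 smxl5-labelled libraries the call was lost without heat replicate 1 (adjusted p = 0.0628).

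psbE, for a cytochrome b559 subunit, and psbH, a small photosystem II protein, were each listed at 0 in many libraries and did not pass in any genotype. psbH was above 0 in 4 libraries only, at 6.08 and 3.72 FPKM in 2 heat libraries and 9.29 and 4.95 FPKM in 2 control libraries. psaC was above 0 in 3 libraries, at 3.05 and 2.05 FPKM after heat and 2.47 FPKM in a control library. The median library held 0.904 estimated reads of psbE and 0 of psbH and psaC.

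Among the NDH genes, which encode the complex for cyclic electron flow around photosystem I, the members were exactly the 3 of the ndhC-ndhK-ndhJ transcription unit. The other 9 NDH rows reached at most 0.860 FPKM in any library. ndhK had 3.06, 4.36 and 2.14 FPKM in smxl6 smxl7 smxl8 heat libraries against 4.201, 5.99 and 3.40 in their controls, and 8.33, 8.36 and 7.22 FPKM in Col-0 heat libraries against 4.48, 5.31 and 4.36 in Col-0 controls. It rose in Col-0 (0.65 ± 0.21, adjusted p = 0.00942) and in ski2 dcl4 (0.61 ± 0.21, 0.0151), did not pass in the other genotypes, and its change in smxl6 smxl7 smxl8 differed from that in Col-0 (adjusted p = 0.035), a call lost without filtering low values (0.0538), under equal nuclear sums (0.0566) and without any 1 of 8 libraries (0.0507 to 0.122): the Col-0 heat replicates 1 and 2, the 3 Col-0 controls, the smxl6 smxl7 smxl8 heat replicates 1 and 3 and their control replicate 2. The rises in Col-0 and ski2 dcl4 were lost under equal nuclear sums (0.141 and 0.172), and that in ski2 dcl4 also without heat replicate 1 (0.0521) or control replicate 3 (0.109). ndhJ averaged 12.2 ± 1.5 FPKM after heat and 8.62 ± 1.0 FPKM in controls in Col-0 and was not called for heat in any genotype. ndhC stayed between 0 and 2.07 FPKM in heat and between 0 and 1.70 FPKM in control libraries.

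The ATP synthase members were atpB and atpE, transcribed together, for the beta and epsilon subunits, and atpF and atpH of the other unit. atpB fell with heat in smxl6 smxl7 smxl8, to 1.78, 1.70 and 1.65 FPKM against 3.02, 3.73 and 1.99 in controls (−0.50 ± 0.13, adjusted p = 0.00222), and in ski2 dcl4 dcl2, to 1.33, 1.56 and 1.39 FPKM against 2.40, 1.95 and 2.18 (−0.39 ± 0.13, 0.0157). The smxl6 smxl7 smxl8 call was lost when only the groups compared were fitted (0.0697). The ski2 dcl4 dcl2 call was lost without heat replicate 1 (0.0516) or control replicate 1 (0.0649), and the other 3 genotypes did not pass. atpE ran from 3.66 to 9.19 FPKM in heat libraries and from 2.55 to 13.8 FPKM in control libraries and was not called, nor were atpF and atpH.

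clpP was called higher after heat in 4 genotypes. It had 17.8, 12.6 and 15.3 FPKM in heat libraries labelled smxl4 smxl5 against 9.96, 11.3 and 8.56 in controls, 12.9, 9.72 and 10.1 in ski2 dcl4 heat libraries against 7.75, 8.26 and 8.46, and 10.7, 10.2 and 11.5 in ski2 dcl4 dcl2 heat libraries against 7.44, 7.47 and 6.79. In Col-0 it had 10.3, 17.4 and 13.4 FPKM after heat against 7.27, 7.61 and 7.29 in controls. Heat and control did not overlap in these 4, and they did in smxl6 smxl7 smxl8 (10.6, 9.49 and 12.1 FPKM against 9.50, 10.8 and 7.78). The log2 change was 0.56, 0.37, 0.52 and 0.79 (SE 0.14 each). Under equal nuclear sums the Col-0 call was kept and the other 3 were lost (adjusted p = 0.246, 0.768 and 0.0816). The ski2 dcl4 call was also lost under upper-quartile rescaling (0.171) and without heat replicate 1 or any of the 3 controls (0.0513 to 0.186).

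Of the 7 genes listed as read mainly by the nuclear-encoded polymerase, clpP and rpoB were the members. rpoB, for the beta subunit of the plastid-encoded polymerase, stayed between 0.584 and 1.81 FPKM in heat and between 0.488 and 1.39 FPKM in control libraries. It was called higher after heat in Col-0 (0.25 ± 0.10, adjusted p = 0.0367) and not in the mutants. The call was lost under equal nuclear sums (0.491), under upper-quartile rescaling (0.0985) and without heat replicate 2 or 3 or any of the 3 controls (0.0565 to 0.214). rpoA, for the alpha subunit, fell in ski2 dcl4 dcl2, to 1.05, 0.838 and 1.05 FPKM against 1.76, 1.92 and 1.75 in controls (−0.51 ± 0.19, adjusted p = 0.032), a call lost without any 1 of these 6 libraries (0.0517 to 0.0963). rpoC2 (0.0250, 0.106 and 0.181 FPKM at the lowest, median and highest in heat libraries, against 0.0748, 0.148 and 0.288 in control libraries) was no member.

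accD, for a subunit of acetyl-CoA carboxylase in fatty acid synthesis, was no member, but it was above 0 in all 15 heat libraries (0.0808, 0.336 and 0.957 FPKM at the lowest, median and highest) and listed at 0 in 9 of 15 control libraries, whose highest value was 0.0712 FPKM. The 2 conditions did not overlap, and no test was made below the filter. ycf1, part of the protein import channel, has a full and a shortened copy: ycf1.1 had a median of 0.264 FPKM in heat libraries against 0 in control libraries (8 of 15 listed at 0), and ycf1.2 a median of 0.310 FPKM against 0.480 FPKM. Both pairs of ranges overlapped. ycf2, a large gene for another subunit of the import machinery, stayed at or under 0.0672 FPKM in every library.

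Several calls of short genes rested on a handful of estimated reads and on rows listed at 0. For psbK, rpl33, rps12C and rpl32, these estimates take the smallest value above 0 as 1 read. psbK, for a small photosystem II protein (0, 1.02 and 3.70 reads at the lowest, median and highest), was listed at 0 in all 3 ski2 dcl4 heat libraries against 40.5, 19.0 and 21.9 FPKM in its controls, and at 31.4, 46.8 and 27.8 FPKM in ski2 dcl4 dcl2 heat libraries against 0 in all 3 of its controls. Both were called, in opposite directions. psbK in smxl6 smxl7 smxl8 had 0, 25 and 0 FPKM after heat against 19.3, 26.4 and 26.1, in the smxl4 smxl5-labelled libraries 95.8, 0 and 0 against 0 in all 3, and in Col-0 40.6, 28.2 and 63.6 against 0, 21.5 and 22.9, with no call. No fold is given against groups listed at 0.

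rpl33, a large-subunit protein gene (0, 0 and 3.66 reads), was called higher in the smxl4 smxl5-labelled libraries, with 20.4, 13.9 and 8.90 FPKM after heat and 0 in all 3 controls. rps12C, a row of the trans-spliced gene for a small-subunit protein, was called higher in Col-0, with 8.25, 8.90 and 4.66 FPKM after heat against 0, 3.35 and 0. rpl32 was called higher in ski2 dcl4 dcl2, with 399, 983 and 1577 FPKM after heat against 0, 0 and 835, which overlapped. The rpl33 call was lost without heat replicate 1 or 2 or any of the 3 controls (adjusted p between 0.0626 and 0.0833), and the rpl32 call without heat replicate 2 or 3 or control replicate 1 or 2 (0.0614 to 0.137). rps16, rps14 and rps18, all for small-subunit proteins, and ycf3 did not pass in any genotype. These members were chosen for naming after their values were seen.

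Without heat, between 0 and 5 members were called between a mutant and Col-0. In the smxl4 smxl5-labelled libraries, 1 member was higher than in Col-0 and none lower, where 15.3% and 14.8% of all genes were. The counts for smxl6 smxl7 smxl8 were 1 and 0 (13.4% and 13.2% of all genes). The member was rpoB in both, with 1.39, 1.36 and 1.17 FPKM in control libraries labelled smxl4 smxl5 and 1.23, 1.30 and 0.867 in smxl6 smxl7 smxl8 controls, against 0.781, 0.699 and 0.760 in Col-0 controls (0.40 ± 0.10, adjusted p = 0.00389, and 0.28 ± 0.10, 0.0388). The second of these calls was lost without any 1 of the 3 Col-0 controls or without smxl6 smxl7 smxl8 control replicate 1 or 2 (0.0694 to 0.144). In ski2 dcl4, 0 members were higher and 5 lower (16.1% and 17.1% of all genes), and in ski2 dcl4 dcl2 none passed limma's test in either direction (1.49% and 0.172% of all genes, and 5 members at an unadjusted p under 0.05).

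The 5 members lower in ski2 dcl4 controls were rpl16, rps3 and rpl22 of the ribosomal protein run, atpB and rpl2.2. rpl16 had 7.46, 7.19 and 6.06 FPKM in ski2 dcl4 controls against 14.7, 14.3 and 15.6 in Col-0 controls (−1.01 ± 0.26, adjusted p = 0.0038), rps3 3.12, 5.00 and 3.16 against 6.26, 7.49 and 6.69 (−0.73 ± 0.21, 0.00943), and atpB 1.57, 1.65 and 1.21 against 3.13, 2.11 and 3.12 (−0.60 ± 0.13, 0.000915). None of these groups overlapped. rpl22 lost its call without Col-0 control replicate 1 or 3 or ski2 dcl4 control replicate 1 or 3 (adjusted p between 0.0599 and 0.0789), rpl2.2 without Col-0 control replicate 1 or 2 or ski2 dcl4 control replicate 1 (0.0561 to 0.153), and rps3 without ski2 dcl4 control replicate 1 (0.0526). The count of 5 became 3 without Col-0 control replicate 1 and 2 without ski2 dcl4 control replicate 1.

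After heat, between 4 and 11 members were called lower in a mutant than in Col-0. In the smxl4 smxl5-labelled libraries, 2 were higher and 4 lower (19.1% and 17.2% of all genes), in smxl6 smxl7 smxl8 0 and 9 (11.7% and 12.1%), in ski2 dcl4 2 and 11 (22.3% and 17.2%), and in ski2 dcl4 dcl2 0 and 6 (2.94% and 2.98%). Fitted on only the groups compared, the lower counts were 2, 5, 6 and 1 in the same order, and 0 members were higher. The 4 comparisons share the Col-0 heat libraries. atpB was called lower in all 4: it had 2.09, 2.02 and 1.97 FPKM in heat libraries labelled smxl4 smxl5, 1.78, 1.70 and 1.65 FPKM in smxl6 smxl7 smxl8 libraries, 1.97, 1.59 and 1.78 in those of ski2 dcl4 and 1.33, 1.56 and 1.39 FPKM in ski2 dcl4 dcl2, against 2.43, 2.84 and 3.26 in Col-0. The Col-0 libraries were above those of every mutant, and the log2 difference was −0.34, −0.50, −0.46 and −0.66 (SE 0.13). The first of these calls was lost without Col-0 heat replicate 2 or 3 or any of the 3 smxl4 smxl5-labelled heat libraries (adjusted p between 0.0687 and 0.169). With only the groups compared fitted, the calls in the smxl4 smxl5-labelled libraries (0.068) and in ski2 dcl4 dcl2 (0.0522) were lost. psbK and rpl23.1 were called lower in ski2 dcl4 and smxl6 smxl7 smxl8, without overlap and on few estimated reads. psbK had 0 in all 3 ski2 dcl4 libraries and 0, 25 and 0 FPKM in smxl6 smxl7 smxl8. Col-0 had 40.6, 28.2 and 63.6. rpl23.1 had 0, 1.49 and 0 FPKM, and 0, 2.66 and 0, against 8.17, 7.12 and 5.84 in Col-0. The ski2 dcl4 calls were kept under all 15 alternatives. The smxl6 smxl7 smxl8 calls were lost with only the groups compared fitted (0.129 and 0.056).

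Of the NDH members, ndhK was lower after heat in smxl6 smxl7 smxl8 (−1.13 ± 0.21 against Col-0, adjusted p = 0.00048). ndhJ was lower in smxl6 smxl7 smxl8 (−0.56, 0.0473), a call lost without any 1 of the 6 libraries (0.064 to 0.126). It was also lower in ski2 dcl4 dcl2 (−0.74, 0.0299), where it had 6.46, 7.57 and 6.57 FPKM against 10.7, 13.7 and 12.2 in Col-0, a call lost without Col-0 heat replicate 2 or 3 or ski2 dcl4 dcl2 heat replicate 1 or 3 (0.0553 to 0.139). cemA, for an envelope membrane protein, had 0.656, 0.768 and 0.384 FPKM in heat libraries labelled smxl4 smxl5 and 0.593, 0.484 and 0.693 in smxl6 smxl7 smxl8, against 1.75, 1.70 and 1.63 in Col-0 (−0.76 ± 0.20 in both, adjusted p = 0.00457 and 0.00782). rpoA was lower in ski2 dcl4 (−0.63) and ski2 dcl4 dcl2 (−0.82), and both calls were lost without Col-0 heat replicate 2, at an adjusted p of 0.0866 and 0.104.

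The members higher than in Col-0 after heat were psbA and rbcL in ski2 dcl4, and rbcL and rpoB in the smxl4 smxl5-labelled libraries. In ski2 dcl4, psbA differed by 0.80 ± 0.23 (adjusted p = 0.00878), a call lost without heat replicate 3 (0.42, 0.109), and rbcL by 1.09 ± 0.25 (0.00124), kept without it. Both calls were lost when only the groups compared were fitted (0.139 for psbA and 0.0669 for rbcL). In the smxl4 smxl5-labelled libraries, rbcL differed by 0.72 ± 0.25 (0.0276), a call lost without heat replicate 1 (0.37, 0.236) or Col-0 heat replicate 1 or 2 (0.0502 and 0.112). The rpoB call there came with overlapping groups and was lost when heat replicate 1 or 2, or either of the Col-0 heat replicates 1 and 2, was left out (0.0587 to 0.262). With only the groups compared fitted, both were lost as well (0.187 for rbcL and 0.206 for rpoB). The count of 6 in ski2 dcl4 dcl2 became 1 without Col-0 heat replicate 2 and 3 without Col-0 heat replicate 3. It was 2, 3 and 3 without the ski2 dcl4 dcl2 heat replicates 1, 2 and 3. The count of 9 in smxl6 smxl7 smxl8 became 5 without heat replicate 3.

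Nuclear genes that act on plastid RNA were read from lists taken up with earlier results in view. Of 21 genes for plastid transcription (polymerases, sigma factors and their partners), 11 were higher and 1 lower with heat in smxl4 smxl5-labelled libraries, 8 higher and 2 lower in smxl6 smxl7 smxl8, 7 and 2 with heat in ski2 dcl4, 9 and 2 with heat in ski2 dcl4 dcl2, and 7 and 5 in Col-0. By genotype, between 25.8% and 32% of all genes were called higher with heat and between 23.6% and 27.3% lower. Under equal nuclear sums the counts of the list became 2 and 4, 2 and 7, 0 and 8, 0 and 6, and 0 and 12, so the direction of the list flips with the scaling. The gene RPOTmp, for a phage-type polymerase of both organelles, fell under each scaling, with 1.37 ± 0.17 FPKM after heat and 2.35 ± 0.08 FPKM in controls in Col-0 (−0.50, adjusted p = 2.77e-05). PTAC2, part of the transcribing plastid chromosome, had 7.53 ± 1.44 FPKM after heat and 12.5 ± 0.86 FPKM in controls there (−0.68, 0.00011). Without rescaling, PTAC2 did not pass in any mutant (adjusted p between 0.0717 and 0.958). Under equal nuclear sums it was called lower in each mutant except the smxl4 smxl5-labelled libraries (−0.34, 0.0645). SIG2, a sigma factor, was higher after heat in Col-0 (69.4 ± 6.6 FPKM, against 55.3 ± 1.7 FPKM in controls, log2 change 0.32, adjusted p = 6.14e-05), and under equal nuclear sums its change was −0.03 (0.712).

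Of 18 genes tested for plastid RNA processing and decay, 15 were higher and 1 lower with heat in smxl4 smxl5-labelled libraries, 13 higher and 3 lower in smxl6 smxl7 smxl8, 12 and 2 with heat in ski2 dcl4, 11 and 3 with heat in ski2 dcl4 dcl2, and 10 and 3 in Col-0. The shares of all genes called with heat were between 25.8% and 32% higher and between 23.6% and 27.3% lower, by genotype. Under equal nuclear sums the counts of the list were 4 and 3, 2 and 4, 3 and 4, 3 and 4, and 4 and 5. PGR3, a pentatricopeptide repeat protein that binds plastid RNAs, fell under each scaling, with 2.87 ± 0.54 FPKM after heat and 8.80 ± 0.55 FPKM in controls in Col-0 (−1.35, adjusted p = 2.57e-11). CSP41B and CP31A, RNA-binding proteins of the plastid, rose in Col-0 under each scaling (1.00, 4.27e-08, and 0.80, 8.67e-09). In ski2 dcl4 controls against Col-0 controls, 2 of the transcription genes were higher and 15 lower, and 0 and 14 of the processing genes, where 16.1% of all genes were higher and 17.1% lower. Under equal nuclear sums these counts were 3 and 14, and 0 and 11.

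The sum of 7 green tissue markers, such as RCA (Rubisco activase), lay between 27458 and 42917 FPKM in heat libraries and between 19101 and 31922 FPKM in control libraries, and all 7 were called higher after heat in each genotype. Under equal nuclear sums, 5 were called higher in the smxl4 smxl5-labelled libraries, 0 in smxl6 smxl7 smxl8, 4 in ski2 dcl4, 7 in ski2 dcl4 dcl2 and 6 in Col-0. The sum of 7 root markers lay between 20.2 and 27.0 FPKM after heat and between 35.8 and 44.6 FPKM in controls, and 4 of the 7 were called lower in each genotype. Among all genes, between 25.8% and 32% were called higher with heat and between 23.6% and 27.3% lower, by genotype. None of the marker genes was listed at 0 in any library. Their part in the plastid results was not tested. In whole seedlings, fewer cells of a type and less RNA per cell cannot be told apart.

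For the other organelle, of 162 mitochondrial genome rows 81 passed the same filter. Of these, 78 were higher with heat in smxl4 smxl5-labelled libraries, 74 in smxl6 smxl7 smxl8, 73 in ski2 dcl4, 70 in ski2 dcl4 dcl2 and 65 in Col-0, with 0 lower in each. Of all genes tested, 29.9%, 28.7%, 32%, 25.8% and 29.9% were higher in the same order. The shares lower were 24%, 24.1%, 23.6%, 24.3% and 27.3%. The summed FPKM of the mitochondrial rows lay between 816 and 2219 in heat libraries and between 10.5 and 18.6 in control libraries. With control sums this low, a mitochondrial row can have passed the filter through the heat libraries alone. The counts of mitochondrial rows called thus describe them and support nothing further. The summed FPKM of the chloroplast members without rpl32 averaged 272 ± 190 after heat and 137 ± 3.88 in controls in the smxl4 smxl5-labelled libraries, 140 ± 25.3 after heat and 166 ± 14.5 at control in smxl6 smxl7 smxl8, 201 ± 38.7 and 119 ± 13.7 FPKM in ski2 dcl4, 158 ± 17.8 after heat and 121 ± 21.3 at control in ski2 dcl4 dcl2, and 237 ± 48.0 and 144 ± 22.6 in Col-0 (SD, n = 3 each). Heat lay above control in the smxl4 smxl5-labelled libraries, ski2 dcl4 and Col-0 and overlapped it in the other 2 genotypes. The difference between the organelles was not tested.

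**Figure D5:**
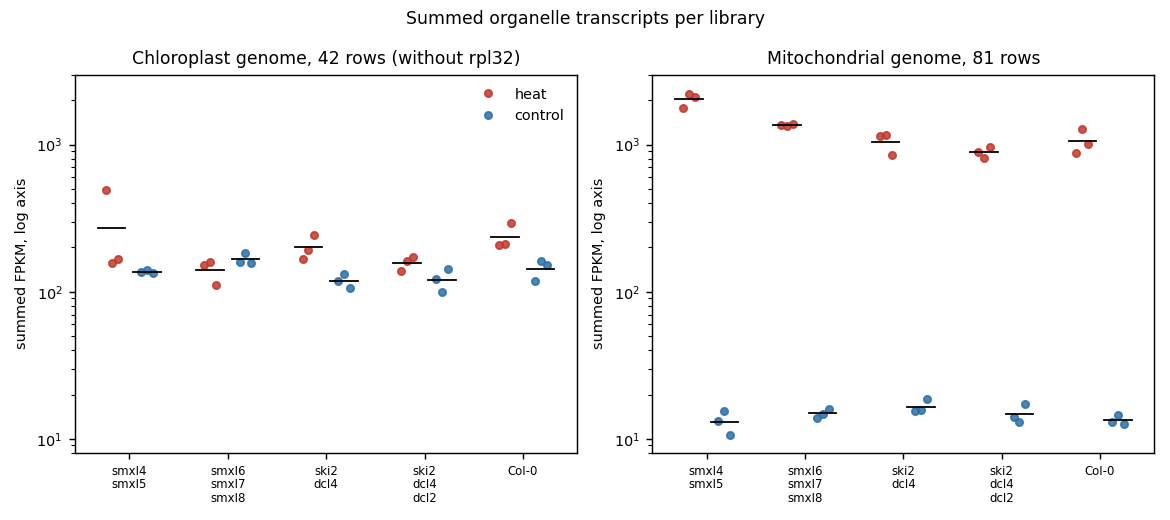
Summed FPKM of the 42 chloroplast members without rpl32 and of the 81 mitochondrial members per library, on log axes, with heat left of control in each genotype and Col-0 last. Lines are group means, and the mitochondrial heat sums (816 to 2219) lie above their controls (10.5 to 18.6), while the chloroplast sums of the 2 conditions overlap in 2 genotypes.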

How the data were processed

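The deposited table holds 1 value per gene and library, taken here to be FPKM made by the authors, because values are not whole numbers and the smallest steps shrink with transcript length. Bowtie is named, without a version, per the submitters' processing notes. Which counting program, genome build and annotation served is not given in the sources used here. Values that are not counts cannot enter a count test, so the one planned for counts was left out.

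Values were taken as log2(FPKM + 1), which understates changes of low genes. The filter of 1 FPKM in 3 or more libraries left 21531 genes. They were fitted with limma 3.58.1 (R 4.3.3) over 30 libraries and 10 group means with an intensity trend and Benjamini-Hochberg adjustment over all genes, and a call is an adjusted p under 0.05. All adjusted p-values are limma's, and log2 values carry its SE. The 17 comparisons were heat in each genotype, each mutant against the wild type in either condition, and the difference of heat changes. Alternatives varied the pseudocount, filter, scaling, trend, libraries and replicate block. The fit was tested on simulated data. Tables were handled in Python 3.11.15.

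The table's symbols were set beside RefSeq names (TAIR10.1): a row named PB was read as atpB, PSBG as ndhK, PCLPP as clpP, YCF10 as cemA, YCF9 as psbZ and ORF31 as petL. Rows of genes with 2 copies are numbered 1 and 2 after a point. Reads were estimated from 2187 rarely detected nuclear genes, except that 5 members took their own smallest value as 1 read. They cover counting error only.

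Named were the 2 highest members per class, the 3 largest rises and falls per comparison among called members whose higher group averaged 5 FPKM or more without overlap, a fixed set (psbA, psaA, psaB, rbcL, rpoB, accD, clpP, ycf1, ycf2), members at the filter's edge, and the 3 smallest adjusted p per nuclear list in Col-0. Other members were named after their values were seen. The members and lists were chosen with earlier results of these data known. The values of 1 member are not reported here.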

Additional observations from a re-analysis of the deposited data

Results flagged for a closer look

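The heat change of 3 members in smxl6 smxl7 smxl8 differed from that in Col-0 by limma's test of the difference. For ndhK the difference was −1.06, for rpl23.1 −2.31 and for rpl2.2 −0.86 on the log2 scale. All 3 calls were lost when only the groups compared were fitted (limma adjusted p = 0.118, 0.117 and 0.0677 in the same order). The rpl23.1 call was also lost at pseudocount 0.1 (0.0512) and without any 1 of 6 libraries (0.051 to 0.0773): the Col-0 heat replicate 1, the Col-0 control replicates 1 and 2, the smxl6 smxl7 smxl8 heat replicates 1 and 3 and their control replicate 2. That of ndhK was lost without any 1 of 8 libraries (0.0507 to 0.122). In smxl6 smxl7 smxl8, ndhK averaged 3.18 ± 1.1 FPKM after heat and 4.53 ± 1.3 FPKM in controls, and in Col-0 7.97 ± 0.65 FPKM after heat and 4.72 ± 0.51 FPKM in controls (SD, n = 3 each). With identical copies summed, rpl2 still passed (−0.74, adjusted p = 0.00886) and rpl23 did not (−2.46, adjusted p = 0.0657).

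psbK moved in opposite directions in 2 genotypes that differ by dcl2. The fitted log2 change was −4.74 in ski2 dcl4, with all 3 heat libraries listed at 0 and all 3 controls above 0, and 5.15 in ski2 dcl4 dcl2, with all 3 heat libraries above 0 and all 3 controls listed at 0. Both values depend on the pseudocount and are no fold. With its smallest value taken as 1 read, the psbK values above 0 stand for about 1 to 4 reads. The difference between these genotypes was not tested. Neither change differed from that in Col-0 by limma's test (−7.14, adjusted p = 0.0934, and 2.75, adjusted p = 0.767).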

How the results depend on the processing

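No called direction turned under any alternative. Of the 17 counts of members called, 15 to 17 stayed within 1.5 times of the values reported under another pseudocount, no filter on low values, upper-quartile or median-of-ratios rescaling, no intensity trend, summed copies and equal nuclear sums. The exceptions were 3 members at pseudocount 0.1 and 2 under upper-quartile rescaling in the control libraries labelled smxl4 smxl5 against Col-0 (1 reported), 3 under upper-quartile rescaling and 2 under equal nuclear sums in ski2 dcl4 dcl2 after heat against Col-0 (6 reported), and 11 under equal nuclear sums for heat in Col-0 (18 reported), where the median of all genes shifts. After heat against Col-0, the members higher and lower became 1 and 5 (smxl4 smxl5-labelled) and 3 and 8 (ski2 dcl4) under equal nuclear sums. Fitting only the groups compared, with fewer libraries to estimate the spread, gave 4 (labelled smxl4 smxl5) and 0 (smxl6 smxl7 smxl8) against Col-0 at control, and against Col-0 after heat 2 for smxl4 smxl5-labelled libraries, 5 for smxl6 smxl7 smxl8, 6 for ski2 dcl4 and 1 for ski2 dcl4 dcl2, and 0 for the difference of heat changes in smxl6 smxl7 smxl8. It lost 37 of 111 calls of single members, against 26 under equal nuclear sums.

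Leaving out 1 library gave 10 to 13 members called with heat in smxl4 smxl5-labelled libraries, 8 to 12 in smxl6 smxl7 smxl8, 11 to 14 for ski2 dcl4, 9 to 12 for ski2 dcl4 dcl2 and 13 to 15 for Col-0. At control it gave 1 to 3, 0 to 2, 2 to 7 and 0 to 1 for the 4 mutants in that order, after heat 4 to 6, 5 to 11, 9 to 13 and 1 to 7, and for the difference of heat changes 0 to 0, 1 to 7, 0 to 1 and 0 to 0. For the last in smxl6 smxl7 smxl8, the count was 1 without Col-0 control replicate 1 or 2, heat replicate 1 or 3 or control replicate 2, 5 without heat replicate 2 and 7 without control replicate 3.

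Replicate numbers are shared across groups. In no comparison did more than 1 of 3 same-numbered pairs correlate above 0.1, with correlations between −0.177 and 0.215. With 3 libraries a group, these values cannot tell whether same-numbered samples share a batch, and the main fit used no replicate block. With the replicate as a block, 17 members were called with heat in Col-0 against 18 without it, no count moved by over 1.5 times, and 6 of 111 calls of single members were lost. Depth limits many members: 20 of 43 had a median under 5 estimated reads and 19 a median of 10 or more.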
